A study of Homo sapiens with 6 samples.

Results

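The genes described here encode 10 enzymes of fatty acid synthesis, elongation and desaturation, chosen by gene symbol from the 19942 symbols of 6 RNA sequencing libraries. They are ACLY, ACSS2 and ME1, which supply acetyl-CoA and NADPH, ACACA and FASN, which build the chain, ELOVL6 and ELOVL5, which lengthen it, and SCD, FADS1 and FADS2, which introduce double bonds. All 10 had a row in every table, and all 10 were expressed highly enough to be tested. The libraries came from the colorectal carcinoma line HCT116, an established human cell line, in a parental form (called wild-type in the labels) and a form resistant to 5-fluorouracil, a pyrimidine analogue used against colorectal cancer. Each form was either untransfected or transfected with siRNA, which was a control or was directed against EHMT2, the gene of the histone H3K9 methyltransferase G9a. Each of the 6 groups held 1 library, so the untransfected, control siRNA and EHMT2 siRNA libraries of the 2 lines were compared pair by pair, and every test below rests on an additive model in which the interaction of line and treatment is the error term. Its p-values measure only the spread among these libraries. The labels do not say whether the resistant cells are a clone or a pool, and the resistant untransfected library carries a slightly different line name from the resistant siRNA libraries. Neither the siRNA sequences nor the time after transfection is given in the sources used.

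Fatty acid synthesis starts in the cytosol. Acetyl-CoA comes from citrate through ACLY or from acetate through ACSS2, ACACA carboxylates it to malonyl-CoA, and FASN condenses the units into palmitate at the expense of NADPH, part of which malic enzyme (ME1) provides. ELOVL6 lengthens palmitate to stearate and SCD turns saturated into monounsaturated chains, whereas FADS2, ELOVL5 and FADS1 act in turn on polyunsaturated chains. Most of these genes are known targets of the SREBP transcription factors, which cells activate when sterols are scarce, and many tumours, colorectal carcinoma among them, make much of their own fatty acid.

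The level of a gene is given as FPKM, fragments scaled by transcript length and library size, on which levels of different genes can be compared. A ratio is a log2 ratio after adding 1 to each FPKM, which understates the change of weakly expressed genes such as FADS2. The FPKM sum of a library ranged from 360730 to 446165, and the number of reads is unknown, so counting error cannot be given. EHMT2 was at 3.80 FPKM with its siRNA and 19.5 with control siRNA in resistant cells, and at 8.58 and 31.7 in parental cells. Untransfected, it was at 27.3 in resistant and 19.8 in parental cells. The targeted gene was thus low in both EHMT2 siRNA libraries, while its control siRNA level lay below the untransfected level in resistant cells and above it in parental cells. Of 8 epithelial markers 7 were at 1 FPKM or more in every library, with CEACAM5 at 0. Of 12 markers of fibroblasts, endothelium, blood and liver 9 or 10 were at 0 in each library. The fibroblast marker COL1A1 was at 3.35 to 9.79 FPKM and the leukocyte marker CD68 at 0.37 to 4.99 FPKM. The haemoglobin gene HBB was at 0 in both untransfected libraries but lay between 26.4 and 32.2 FPKM in the 4 siRNA libraries. In RNA from whole cultures, fewer expressing cells and less RNA per cell cannot be told apart.

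Promoter windows of 300 bases, from 250 before to 50 after a start site, were taken from RefSeq (GRCh38.p14). They gave 14 windows for 9 of the 10 genes, all but FASN, and were searched on both strands for 4 motifs: CCAAT, the GC box GGGCGG, the E-box CACGTG and TCACCCCAC, a sterol element known from the LDL receptor promoter. The stretches shown belong to SCD, the gene with the widest range of levels, and to ACLY and ME1, whose levels followed each other most closely among genes of acetyl-CoA and NADPH supply. They are read 5′ to 3′ on the strand of the gene, outside annotated exons, with matches on either strand in capitals. The ACLY stretch lies upstream of its window's start site but inside the annotated span of the gene, 41866908 to 41930542.
SCD, chr10:100346983-100347123, plus strand: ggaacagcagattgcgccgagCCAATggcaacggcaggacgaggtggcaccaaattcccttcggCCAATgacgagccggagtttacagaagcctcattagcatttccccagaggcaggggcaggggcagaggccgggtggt
ACLY, chr17:41919023-41919272, minus strand: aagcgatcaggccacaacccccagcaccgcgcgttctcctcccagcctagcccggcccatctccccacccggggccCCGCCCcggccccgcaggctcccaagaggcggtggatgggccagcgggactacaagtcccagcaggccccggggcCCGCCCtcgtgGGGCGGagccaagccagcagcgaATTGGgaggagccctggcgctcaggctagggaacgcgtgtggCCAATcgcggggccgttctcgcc
ME1, chr6:83431072-83431301, minus strand: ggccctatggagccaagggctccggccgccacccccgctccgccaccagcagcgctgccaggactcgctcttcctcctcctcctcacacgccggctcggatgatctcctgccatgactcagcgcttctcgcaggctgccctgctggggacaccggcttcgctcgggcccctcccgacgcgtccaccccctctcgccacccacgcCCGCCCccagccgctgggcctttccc
CCAAT was found in 8 of the 14 windows against 34.6% of 35116 windows of all genes, and GGGCGG, whose matches can overlap, in 11 against 45.0%. Some genes gave several windows, and those of ACLY overlap each other, as do those of FADS2. The same match can thus be counted again, and these shares are not per gene. CACGTG occurred in 1 window, that of ELOVL5, against 7.26%, and TCACCCCAC in 0, against 0.43%. The SCD stretch holds 2 CCAAT matches in the gene's own direction. The SCD window also holds 2 GGGCGG matches on the opposite strand, nearer the start site than the stretch shown. ACLY holds CCAAT and GGGCGG matches on both strands, and ME1 holds a single GGGCGG match on the opposite strand. A match describes these letters and is not evidence that a factor binds there.

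Most of the enzyme genes were higher in resistant than in parental cells, and SCD stood far above the others. Of the 10 genes, 8 were higher in resistant cells in all 3 line pairs, all but ACLY and ACACA, against 14.0% of 11521 tested genes. For 5 genes (ACSS2, ELOVL6, SCD, FADS1 and FADS2) the 3 resistant libraries all lay above the 3 parental libraries, against 2.89% of tested genes. The 10 genes were chosen with earlier results of these data known, so these shares are descriptive and test nothing. The median ratio of the 10 genes was 0.58 for the untransfected pair, 0.45 under control siRNA and 0.35 under EHMT2 siRNA, where the median of all genes measured in the pair was 0.07, −0.02 and −0.05. At least 2-fold higher in FPKM + 1 were 2 genes untransfected (FASN and SCD; 3.48% of all genes), 3 with control siRNA (ACSS2, FASN and SCD; 1.6%) and 1 with EHMT2 siRNA (SCD; 1.54%). FADS2 was 2.13-fold higher in FPKM itself in the untransfected pair. Levels of SCD and FASN were lower with EHMT2 siRNA than with control siRNA in both lines. These were the only 2 of the 10 genes that were at least 2-fold lower in resistant cells (4.04% of all genes). FASN in parental cells was not below its untransfected level, at 63.4 FPKM with EHMT2 siRNA and 50.2 untransfected.

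**Figure D1:**
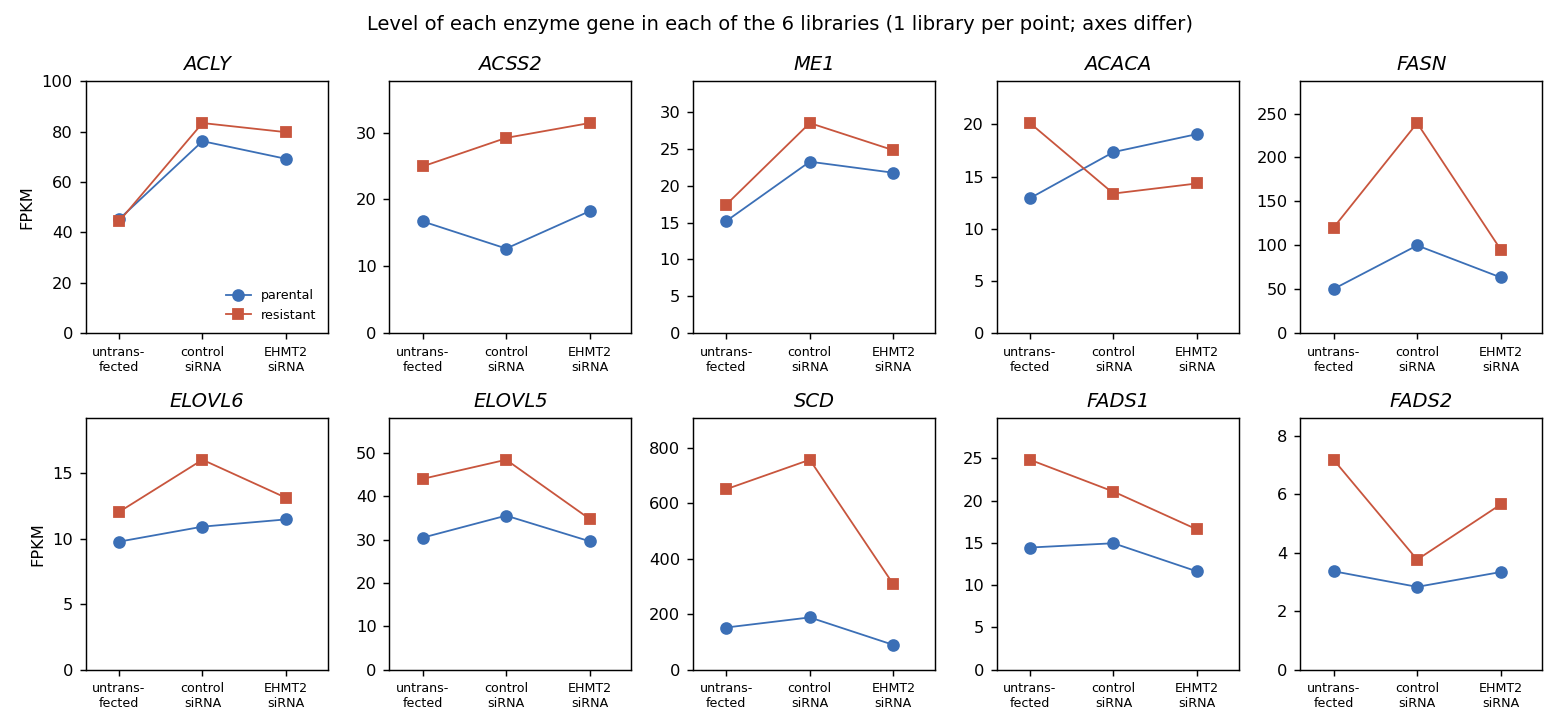
FPKM of each of the 10 enzyme genes in the 6 libraries, 1 point per library and 1 panel per gene, with parental cells as circles and resistant cells as squares; the vertical axes differ and start at 0, and lines only join the libraries of a line. SCD runs from 89.4 to 756 FPKM with no overlap between lines, whereas ACLY follows treatment and the lines cross for ACACA.

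Among the genes that supply acetyl-CoA, ACLY followed treatment and ACSS2 followed line. ACLY (chromosome 17, 41866908 to 41930542, GENCODE 29 on GRCh38) splits citrate exported from mitochondria into acetyl-CoA and oxaloacetate. Its level in parental cells was 45.2 FPKM untransfected, 76.2 with control siRNA and 69.2 with EHMT2 siRNA, and in resistant cells 44.3, 83.5 and 79.8 in the same order. Both untransfected libraries were low and all 4 siRNA libraries high, and the lines overlapped. The line ratios of ACLY were −0.03, 0.13 and 0.20 in the same order, and the first of them became 0.21 when libraries were rescaled to the same sum.

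ACSS2 (chromosome 20, 34872146 to 34927962) makes acetyl-CoA from acetate in the cytosol and nucleus. It measured 16.7, 12.7 and 18.3 FPKM in parental cells, untransfected, with control siRNA and with EHMT2 siRNA, and 24.9, 29.2 and 31.4 in resistant cells. Every resistant library was above every parental one. The line ratio was widest with control siRNA, 1.15, and it was 0.55 untransfected and 0.75 with EHMT2 siRNA. With control siRNA the level was lower than untransfected in parental cells, the lowest of the 6, but higher in resistant cells.

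ME1 (chromosome 6, 83210389 to 83431071), which forms NADPH while turning malate into pyruvate, was at 15.2, 23.3 and 21.8 FPKM in parental and 17.4, 28.5 and 24.8 in resistant cells, in the same order of treatments. As for ACLY, the untransfected libraries were the lowest of each line, and the lines overlapped. ME1 fitted the additive model most closely of the 10 genes, with a residual SD of 0.0402 on the log2 scale.

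The gene of the committed step behaved unlike the rest. ACACA (chromosome 17, 37084988 to 37406818), acetyl-CoA carboxylase, was at 12.9, 17.3 and 19.1 FPKM in parental and 20.1, 13.4 and 14.3 in resistant cells. The resistant library was the highest of the 6 when untransfected, but both resistant siRNA libraries lay below both parental siRNA libraries. Line ratios were therefore 0.60 untransfected, −0.35 with control siRNA and −0.39 with EHMT2 siRNA. Its residual SD of 0.397 was the widest of the 10, and the fitted line difference was −0.05 (SE 0.24).

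FASN (chromosome 17, 82078333 to 82098332) encodes the multifunctional synthase that assembles palmitate. Parental libraries held 50.2, 99.8 and 63.4 FPKM and resistant libraries 120.1, 239 and 95.1, again untransfected, with control siRNA and with EHMT2 siRNA. Within each treatment the resistant library was higher, with ratios of 1.24, 1.25 and 0.58, although the resistant EHMT2 siRNA library lay just below the parental control siRNA library. In both lines the control siRNA library was the highest, so FASN with EHMT2 siRNA was low against control siRNA but not against untransfected cells of the parental line, where 63.4 stood above 50.2.

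The elongases varied less. ELOVL6 (chromosome 4, 110045846 to 110199199) was at 9.79, 10.9 and 11.5 FPKM in parental and 12.1, 16.1 and 13.1 in resistant cells, and the 2 lines did not overlap, although the gap between them was narrow. ELOVL5 (chromosome 6, 53267398 to 53349179) stood at 30.4, 35.5 and 29.6 in parental and 44.0, 48.4 and 34.7 in resistant cells. For ELOVL5 the resistant EHMT2 siRNA library lay within the parental range, and each line had its lowest level with EHMT2 siRNA.

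SCD (chromosome 10, 100347124 to 100364834) was the most abundant of the 10 in every library and had the widest range. Stearoyl-CoA desaturase, its product, makes oleate and palmitoleate. Parental cells had 152, 188 and 89.4 FPKM and resistant cells 650.0, 756 and 307 in the order untransfected, control siRNA and EHMT2 siRNA. The lowest resistant level, with EHMT2 siRNA, was above the highest parental level. Ranked by FPKM among all genes of its library, SCD was number 271, 211 and 536 in parental cells and 53, 81 and 150 in resistant cells. SCD alone made up 43.4%, 39.1% and 26.5% of the summed FPKM of the 10 genes in parental cells and 67.4%, 61.0% and 49.3% in resistant cells. That sum was 350.2, 482 and 337 FPKM in parental and 965, 1239 and 623 FPKM in resistant cells, so SCD carried most of the difference between lines.

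**Figure D2:**
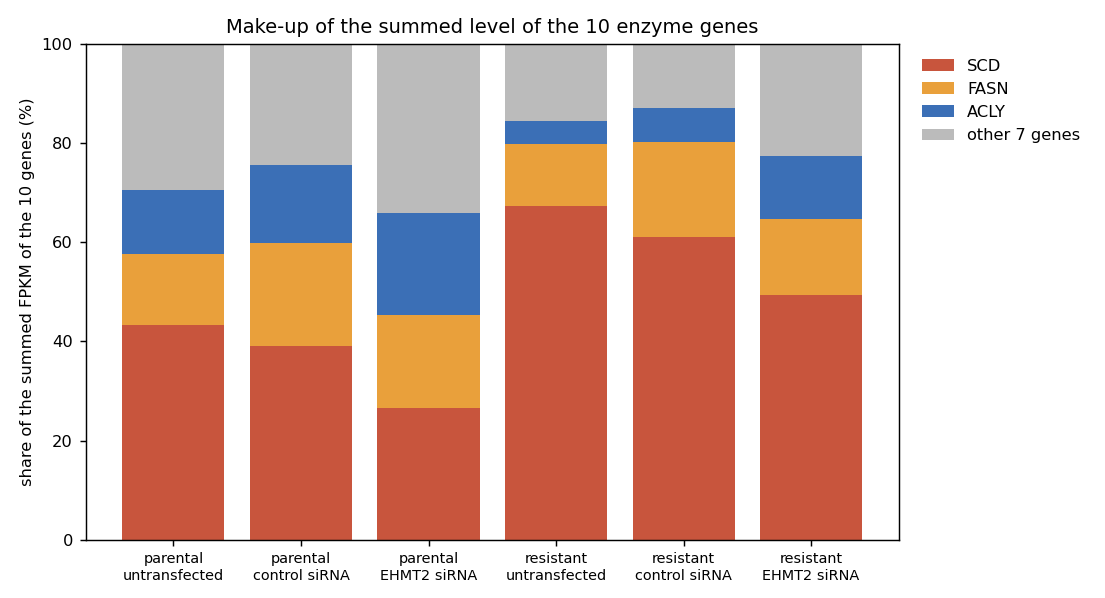
Share of the summed FPKM of the 10 enzyme genes, in percent, taken by SCD, FASN, ACLY and the other 7 genes together, with 1 stacked bar per library. SCD takes 26.5% to 43.4% in the parental bars and 49.3% to 67.4% in the resistant bars, and its share is lowest with EHMT2 siRNA in each line.

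FADS1 and FADS2 are neighbours on chromosome 11 (61799625 to 61829318 and 61792980 to 61867354) that encode the desaturases of polyunsaturated fatty acid synthesis. Their exons share 490 bases on opposite strands, and no source used here gives the strand setting of the counting, so reads of that overlap, 5.57% of the exonic bases of FADS1 with a further small transcript and 4.89% of those of FADS2 with FEN1, cannot be told apart. FADS1 was at 14.4, 15.0 and 11.6 FPKM in parental and 24.8, 21.1 and 16.6 in resistant cells, with all resistant libraries above all parental ones. FADS2 was the weakest of the 10, at 3.37, 2.84 and 3.34 FPKM in parental and 7.19, 3.77 and 5.66 in resistant cells. Its lines did not overlap either, but the resistant control siRNA library came close to the parental ones. Against control siRNA, the neighbours went opposite ways with EHMT2 siRNA. The ratios were −0.33 and −0.34 for FADS1 and 0.48 and 0.18 for FADS2 in resistant and parental cells. Against untransfected cells both genes were lower with EHMT2 siRNA in both lines, FADS2 in parental cells only at 3.34 against 3.37 FPKM.

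In the limma fit to all 6 libraries, with Benjamini-Hochberg adjustment over 11521 genes, 0 of the 10 genes passed an adjusted p of 0.05 for line, as did 0.0% of all genes, while 603 genes, 6 of the 10 among them, had an unadjusted p under 0.05. SCD had the lowest p-value for line of all 11521 genes, with a coefficient of 1.95 (SE 0.18) and an adjusted limma p of 0.318. Next among the 10 came FASN at 1.02 (SE 0.20) and ACSS2 at 0.82 (SE 0.17). FADS2, FADS1, ELOVL5, ELOVL6, ME1 and ACLY had positive coefficients of 0.61, 0.56, 0.39, 0.32, 0.22 and 0.10.

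A limma fit restricted to the 4 siRNA libraries called 3 of the 10 genes for line, where 8.96% of all genes were called and 4.49% were called higher. SCD rose in resistant cells by 1.88 (SE 0.13, adjusted p = 0.00201 by limma with Benjamini-Hochberg adjustment), ACSS2 by 0.95 (SE 0.14, adjusted p = 0.0176) and FASN by 0.92 (SE 0.17, adjusted p = 0.0289). FADS1, at 0.47, had an adjusted limma p of 0.0550. This fit leaves 1 residual degree of freedom before moderation. Over all alternatives run, the adjusted limma p of SCD for line ranged from 0.00197 to 1.000, and the calls appeared only where 1 or both untransfected libraries were left out, which gives the same estimates.

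**Figure D3:**
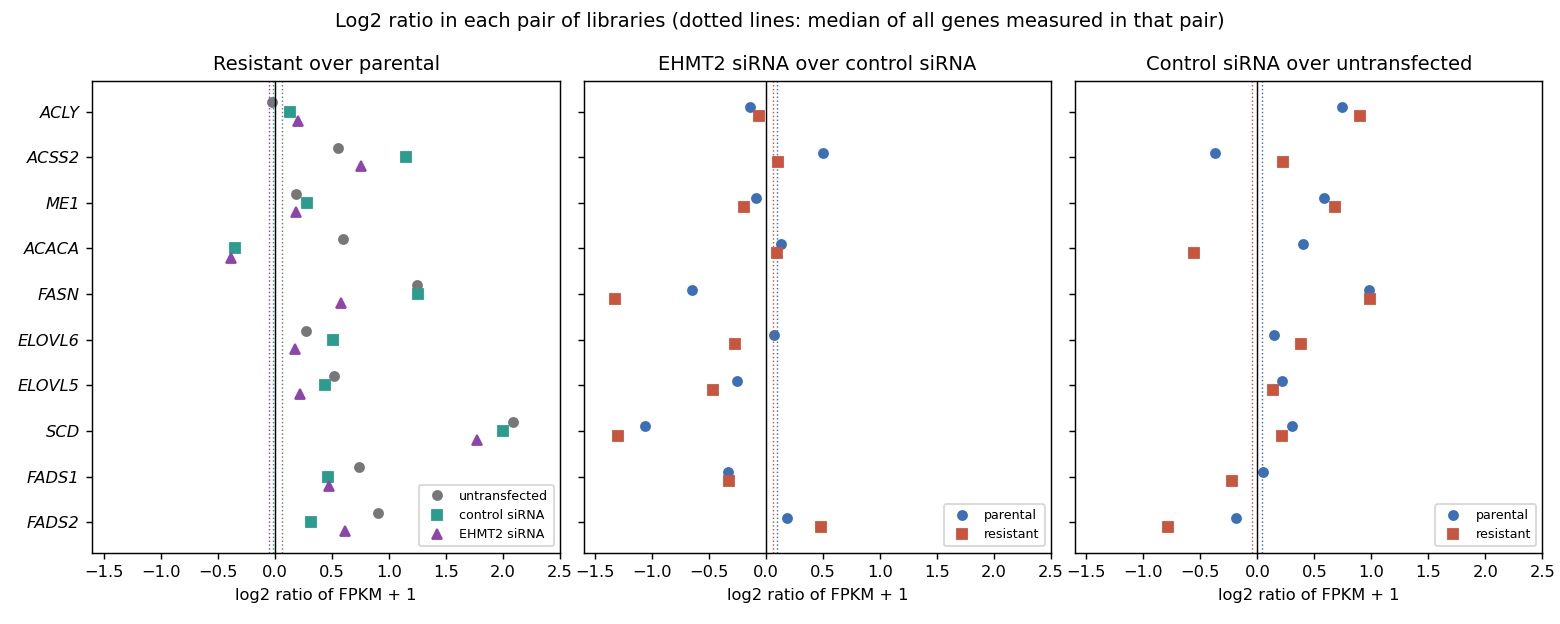
Log2 ratio of FPKM + 1 for each of the 10 enzyme genes in each pair of libraries: resistant over parental for 3 treatments, EHMT2 siRNA over control siRNA in 2 lines, and control siRNA over untransfected in 2 lines, with dotted lines at the median of all genes in each pair. The line ratios of SCD sit between 1.77 and 2.09, FASN and SCD lie far to the left with EHMT2 siRNA, and ACACA lies on both sides of 0 in the left and right panels.

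Against control siRNA, EHMT2 siRNA went with lower levels of 6 of the 10 genes in both lines (ACLY, ME1, FASN, ELOVL5, SCD and FADS1), where 36.7% of tested genes were lower in both. For ACLY the ratios were only −0.06 and −0.14 in resistant and parental cells, and for ME1 −0.19 and −0.09. With EHMT2 siRNA these 2 genes stayed above their untransfected levels in both lines. The control siRNA libraries of this comparison are also used in the comparison with untransfected cells below. SCD was at 40.7% of the control siRNA level in resistant and 47.5% in parental cells, with ratios of −1.30 and −1.07. FASN was at 39.8% and 63.5%, with ratios of −1.32 and −0.65. These were 2 genes at least 2-fold lower in resistant cells and 1, SCD, in parental cells (3.51% of all genes). ELOVL5 had ratios of −0.47 and −0.25.

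ACSS2, ACACA and FADS2 were higher with EHMT2 siRNA in both lines, where 45.2% of tested genes were. Their ratios were at most 0.50, that of ACSS2 in parental cells. The median of the 10 genes was −0.23 in resistant and −0.11 in parental cells, beside 0.06 and 0.09 over all genes. FASN differed most between lines, its ratio in resistant cells being lower by 0.67 than in parental cells, and for SCD the difference was −0.23. With 1 library per group neither difference could be tested.

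The 6-library limma fit called 0 of the 10 genes for EHMT2 siRNA and 0.0% of all genes, with 3060 genes, 2 of the 10 among them, at an unadjusted p under 0.05. SCD and FASN came near the threshold, with coefficients of −1.18 (SE 0.22, adjusted p = 0.0635 by limma) and −0.98 (SE 0.24, adjusted p = 0.0889). In the 4-library fit SCD fell by 1.18 (SE 0.13, adjusted p = 0.00140 by limma), FASN fell by 0.98 (SE 0.17, adjusted p = 0.00556) and ELOVL5 fell by 0.36 (SE 0.12, adjusted p = 0.0451). That fit called 42.5% of all genes, and 18.7% of all genes were called lower. Leaving out 1 untransfected library gives the same estimates as this fit by construction and is no separate check. Without any 1 of the siRNA libraries the limma fit called 0 of the 10 genes. The adjusted p of SCD over all alternatives ranged from 0.00138 to 0.489, and that of FASN from 0.00543 to 0.570.

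**Figure D4:**
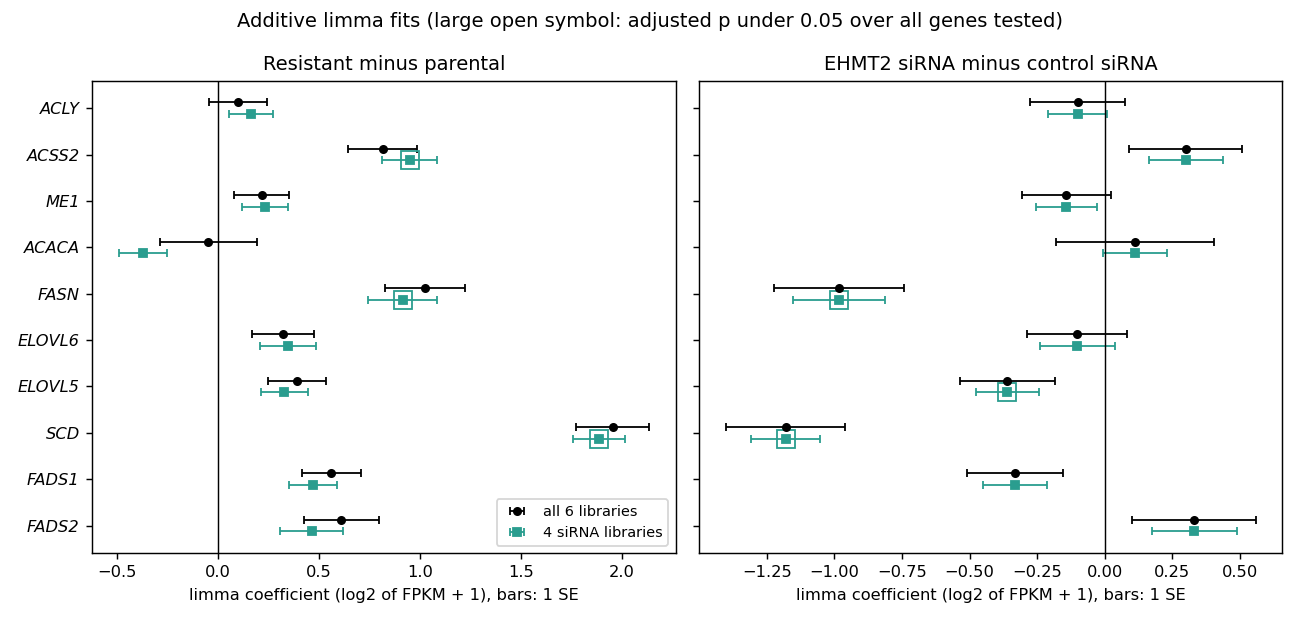
Coefficients of the additive limma fits for line (left) and EHMT2 siRNA (right) for the 10 enzyme genes, on the scale of log2(FPKM + 1), with bars of 1 SE, for all 6 libraries (circles) and the 4 siRNA libraries (squares); a large open square marks an adjusted p under 0.05. SCD, FASN and ACSS2 are marked for line and SCD, FASN and ELOVL5 for EHMT2 siRNA, each in the 4-library fit only.

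Control siRNA against untransfected cells shows what transfection and anything else that separates these libraries did to the same genes. In both lines 6 of the 10 genes (ACLY, ME1, FASN, ELOVL6, ELOVL5 and SCD) were higher with control siRNA, where 23.9% of tested genes were. FASN had ratios of 0.99 in resistant and 0.98 in parental cells, ACLY 0.90 and 0.74, and ME1 0.68 and 0.58. FADS2 was lower in both, by 0.78 and 0.19. No ratio reached 2-fold, so 0 of the 10 genes were counted, against 8.18% of all genes in resistant and 3.03% in parental cells. ACACA was 0.56 lower in resistant but 0.40 higher in parental cells.

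In the 6-library limma fit 0 of the 10 genes were called for control siRNA against untransfected cells, where 0.0434% of all genes were called, which is 5 genes, and 813, 3 of the 10 among them, had an unadjusted p under 0.05. FASN, ACLY and ME1 had coefficients of 0.98, 0.82 and 0.63, each with an adjusted limma p of 0.700. Without the parental untransfected library limma called 17.9% of all genes, ACLY and ME1 higher and ACACA lower among them. Without the resistant one it called 3.58%, ACLY and FASN higher among them, with the remaining untransfected library assumed to vary like the others. The direction of SCD in resistant cells depended on the scaling, since its ratio was 0.22 as deposited and −0.55 after quantile normalisation. HBB, at 0 FPKM in both untransfected libraries, separates the libraries in the same way, and its part in these differences was not tested.

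Across the 6 libraries some of the enzyme genes followed one another. Pearson's r of the log2 levels was 0.963 between SCD and FADS1, 0.958 between SCD and ELOVL5, 0.956 between ACLY and ME1 and 0.940 between FASN and ELOVL5, and lowest between ACLY and FADS2, at −0.337. These values describe 6 points that share 2 lines and 3 treatments. Among 6345 genes that varied by an SD of 0.3 or more, the levels most like SCD were those of CDKN2A (r = 0.989), TMX4 (0.988) and SQLE, a cholesterol synthesis enzyme (0.977). For FASN the genes most alike included NPAS2, a circadian transcription factor (0.950). ACSS2 was most like STARD4, a sterol carrier (0.991), TNFRSF12A (0.984) and PMAIP1 (0.984). FADS1 was most like SQLE (0.996), BLOC1S1 (0.983) and DUSP4 (0.981), and FADS2 most like PPP2R2D (0.975), PHPT1 (0.974) and IFI35 (0.971).

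The genes around these enzymes were read from 7 lists, and in the 6-library limma fit none of their members passed for line or for EHMT2 siRNA with Benjamini-Hochberg adjustment, so the calls that follow are those of the 4-library fit. For line that fit called 4.49% of all genes higher and 4.47% lower, and for EHMT2 siRNA 23.8% higher and 18.7% lower, so that 42.5% were called in either direction. Of 12 tested SREBP and other lipogenic regulators 3 rose with line and 0 fell, against 4.49% and 4.47% of all genes. The 3 were INSIG1, which retains SREBP in the endoplasmic reticulum, by 1.61, SREBF2 by 0.61 and SREBF1 by 0.60. INSIG1 was at 5.45, 11.9 and 12.1 FPKM in parental and 24.5, 43.1 and 34.6 in resistant cells, untransfected, with control siRNA and with EHMT2 siRNA, with no overlap. MLX had the lowest line coefficient of the list over 6 libraries, −0.18, and the list median was 0.13, beside −0.01 for all genes. In the 4-library fit the lowest was MLXIPL, at −0.50, and the list median was 0.01, beside −0.03 for all genes.

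With EHMT2 siRNA 4 of the same 12 regulators fell and 2 rose, a share near the 42.5% of all genes. MBTPS1, the protease that starts the release of SREBP, fell by 1.19, SREBF2 by 1.16, SREBF1 by 0.78 and NR1H2, a liver X receptor, by 0.49, whereas MLXIPL and MLX rose by 0.59 and 0.45. MBTPS1 stood at 18.3 FPKM in resistant and 18.7 in parental cells with EHMT2 siRNA and between 43.0 and 50.5 in the other 4 libraries. SREBF2 was at 20.1 in resistant and 15.2 in parental cells with EHMT2 siRNA and between 29.7 and 54.1 otherwise, while SREBF1, at 53.4 and 31.7 against 48.6 to 86.5, overlapped between treatments. The adjusted p of MBTPS1 in the 6-library limma fit was 0.0529, the lowest adjusted value of that fit, which other genes shared. Under EHMT2 siRNA the ratio of INSIG1 was −0.31 in resistant cells and 0.02 in parental cells.

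Of 9 tested genes of NADPH supply other than ME1 2 rose with line, PGD of the pentose phosphate pathway by 0.91 and the cytosolic isocitrate dehydrogenase IDH1 by 0.75, and 0 fell. With EHMT2 siRNA the same 2 genes rose, IDH1 by 0.89 and PGD by 0.43, and 4 fell, among them ME2, the mitochondrial malic enzyme, by 0.49, IDH2 by 0.37 and MTHFD1 by 0.37. NADK had the lowest line coefficient over 6 libraries, −0.13.

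Of 8 tested genes of citrate and acetyl-CoA supply 1 rose with line, SLC25A1, the mitochondrial citrate carrier, by 0.54. PDHB rose by 0.72 and ACO1 by 0.64 with EHMT2 siRNA, 2 of the 8 genes and near the 23.8% of all genes called higher. The lowest over 6 libraries were DLAT for line, at −0.30, and citrate synthase (CS) for EHMT2 siRNA, at −0.37. In mitochondrial fatty acid synthesis and malonyl-CoA metabolism 0 of 8 tested genes were called for line, where the 6-library coefficients ran from −0.49 for MECR to 0.07 for OXSM. With EHMT2 siRNA 2 of these 8 rose, NDUFAB1 by 0.65 and HSD17B8 by 0.55, and MECR fell by 0.86, together not above the share of all genes. Among 11 other elongation and desaturation genes 0 were called for line, with 6-library coefficients from −0.32 for ELOVL3 to 0.34 for HSD17B12. With EHMT2 siRNA HACD1 rose by 1.16, FADS3 by 1.15 and ELOVL1 by 0.80, while HACD2 fell by 0.40, together not above the 42.5% of all genes.

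Of 17 genes of glycerolipid synthesis and lipid droplets DGAT1, which completes triglycerides, was the only one called for line, and it fell by 0.62 in the siRNA libraries. In untransfected cells it was higher in resistant cells, with a ratio of 0.52, and its 6-library coefficient was −0.24. With EHMT2 siRNA 5 of the 17 rose (LPIN1 by 1.11, CHKA, PNPLA3, LPIN3 and PLIN3) and 3 fell (DGAT2 by 0.76, AGPAT3 and AGPAT5), together near the 42.5% of all genes. For line the 6-library coefficients of this list ran from −0.34 for PNPLA2 to 0.58 for LPIN1. Of 17 tested genes of fatty acid oxidation 8 were called higher with EHMT2 siRNA and 1 lower, against 23.8% and 18.7% of all genes. PPARA, a transcription factor of fatty acid oxidation, rose by 1.44, CPT1A, which admits fatty acids to mitochondria, by 1.30 and the carrier SLC25A20 by 1.27, while ACAA2 fell by 0.83. HADHA, HADHB, ETFA and ETFB were also called higher. CPT1A was at 37.6 FPKM in parental and 22.6 in resistant cells with EHMT2 siRNA, against 8.35 to 17.7 in the other 4 libraries. For line CPT1A fell by 0.74 and was the only oxidation gene called, and HADH had the highest 6-library coefficient, 0.25.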

How the data were processed

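RNA was sequenced from 6 libraries of HCT116 cells, made from total RNA (TruSeq v2, per the labels' protocols). Values were deposited by the authors as FPKM, with a table for each library. HISAT2 2.2.1, StringTie 2.1.1, cutadapt 4.9, FastQC 0.12.1 and build GRCh38 are named in the submitters' processing notes. The annotation release, strand setting and read depth were not given in the sources used here.

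Tables of 19957 rows were joined by gene, and the row of highest mean was kept for a repeated symbol. Coordinates and shared exonic bases came from GENCODE 29, in which 19887 symbols had an entry. Ratios used log2(FPKM + 1) and genes reaching 1 FPKM in either library of a pair. An additive model of line and treatment was fitted by limma 3.58.1 (R 4.3.3) to the 11521 genes that reached 1 FPKM in at least 3 libraries. The fit used a mean-variance trend and Benjamini-Hochberg adjustment. It was also run on simulated data that held no interaction of line and treatment, so that run could not check the use of the interaction as error. The fit to the 4 siRNA libraries was an alternative. Others were the pseudocount, the filter, rescaling, centring, quantile normalisation, no trend, summed repeated symbols, other fold thresholds and leaving out libraries or genes.

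The enzyme genes and the lists were chosen with earlier results of these data known. From each list the genes of highest and lowest coefficient and those called were named, and for likeness the 3 genes of highest Pearson r, for SCD, FASN and enzyme genes spanning 2-fold or more. Some genes that these rules take are not reported here, while counts and medians include them.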

Additional observations from a re-analysis of the deposited data

Results flagged for a closer look

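ACACA, acetyl-CoA carboxylase, drew attention because its ratio pointed in opposite directions in comparable pairs of libraries. Its log2 ratio of control siRNA over untransfected was −0.56 in resistant and 0.40 in parental cells, so that the resistant ratio minus the parental ratio was −0.95. The same 4 libraries give the line ratio of ACACA as −0.35 with control siRNA and 0.60 untransfected, with the same difference of −0.95. With EHMT2 siRNA the line ratio was −0.39, which differs from the untransfected ratio by −0.99. These differences were not tested, since each group held 1 library, and all 3 rest on the untransfected libraries.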

How the results depend on the processing

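Depth is unknown, so counting error could not be weighed. Rescaling every library to the same FPKM sum moved the median of all genes by 0.22 in the untransfected line pair, 0.11 in the parental EHMT2 siRNA pair and 0.16 in the parental pair of control siRNA over untransfected. The medians of the 10 enzyme genes then became 0.81, 0.0046 (reversed in sign) and 0.44, and the counts 2-fold lower with EHMT2 siRNA and 2-fold apart with control siRNA in parental cells became 0 and 1. Leaving out single genes gave medians of 0.22 to 0.48 for the line pair with EHMT2 siRNA.

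At 1.5-fold the counts were 5 (line, untransfected), 3 (line, EHMT2 siRNA), 2 (EHMT2 siRNA, parental), and 4 and 2 (control siRNA over untransfected, resistant and parental). The share of all genes at 1.5-fold was not computed, so these counts cannot be set beside the shares given at 2-fold. Quantile normalisation left 1 gene 2-fold lower with EHMT2 siRNA in resistant cells, and centring made 1 gene 2-fold apart for control siRNA over untransfected in resistant cells.

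For line the limma fit called 1 of all genes with no filter and 1032 with the 4 siRNA libraries, 3 of them enzyme genes. Leaving out 1 library gave 0 to 1034 genes and 0 to 3 enzyme genes, with 1018 and 1034 without the resistant or the parental untransfected library and 0 without any siRNA library. For EHMT2 siRNA it called 12 with no filter, 263 at 5 FPKM or more and 4902 with the 4 siRNA libraries, 3 of them enzyme genes. Leaving out 1 library gave 0 to 4904 and 0 to 3 enzyme genes, with 4903 and 4904 without the resistant or the parental untransfected library and at most 1 without an siRNA library. For control siRNA against untransfected it called 3 genes with a pseudocount of 0.1, 3 with no filter and 3 to 2059 without 1 library, of which 0 to 3 were enzyme genes; the 2059 came without the parental untransfected library and 413 without the resistant one.

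The line coefficient of ACACA was 0.023 after rescaling and ranged from −0.37 to 0.12 without 1 library, where it was 0.11 without either control siRNA library and 0.12 without either EHMT2 siRNA library. For EHMT2 siRNA, ACACA ranged from −0.14 to 0.37 and ELOVL6 from −0.25 to 0.041 without 1 library. For control siRNA against untransfected, ACSS2 ranged from −0.33 to 0.17, ACACA from −0.57 to 0.41 and FADS1 from −0.22 to 0.044, and SCD was −0.10 after quantile normalisation. Of single ratios, ME1 with EHMT2 siRNA in parental cells was 0.03 after rescaling and ELOVL6 there was −0.03 after centring and after quantile normalisation. The cause of these changes was not tested.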
